A study of Mus musculus with 14 samples.

Results

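The 10 transcription factors described here are Bcl6, Foxo1, Foxp1, Pax5, Pou2af1, Ebf1, Bach2, Mef2b, Mef2c and Spib, a set chosen by name because each is known to act in B cells or in the germinal centre (GC). This set and the gene lists below were chosen with earlier results of these data known, so their shares beside those of all genes are descriptions. Of the 10, 9 had a row among the 9969 genes of the count table of unique molecular identifiers (UMIs, tags that count each captured mRNA molecule once), and all 9 passed the filter on low counts. Mef2b was not analysed here by UMI. The table of deposited read counts gave it 8 reads over the WT dark zone libraries, 10 over the WT light zone, 4 over the SykY317F dark zone and 1 over the SykY317F light zone, too few to compare.

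Libraries came from popliteal lymph nodes of chimeric C57BL/6 mice in which 50% of the cells were wild type (WT) and 50% SykY317F, taken 14 days after immunization with NP-KLH, a hapten coupled to a carrier protein. Syk is the tyrosine kinase that relays antigen receptor signals in B cells, and SykY317F carries phenylalanine in place of a tyrosine that serves as a docking site for Cbl ubiquitin ligases. GC B cells of each genotype were sorted into dark zone (DZ) and light zone (LZ) cells, which gave 4 libraries for each WT zone and 3 for each SykY317F zone. All groups share the chimeric host and the immunization, and the labels do not say which libraries came from separate mice, so p-values measure the spread between these libraries, which may be partly technical. In bulk samples, fewer cells of a type and less RNA per cell cannot be told apart.

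The DZ of a germinal centre is where B cells proliferate and acquire antibody mutations, and the LZ is where they are tested against antigen and compete for T cell help. Pax5 and Ebf1 set and hold B cell identity. Bcl6, a zinc finger repressor, is required for the GC reaction, Bach2 is a repressor that holds back plasma cell fate, and Foxo1 is required for the DZ programme. Pou2af1 (also called OBF-1 or Bob.1) is a coactivator that joins the octamer-binding Oct factors and is required for germinal centres to form. Spib is an Ets factor related to PU.1, Mef2b and Mef2c are MADS-box factors, of which Mef2b is known to act on the Bcl6 gene, and Foxp1 is a forkhead repressor that is reduced in GC B cells relative to naive B cells.

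Depth was unequal. UMI totals spanned 747948 to 1767898 for the DZ and 499443 to 1600902 for the LZ of WT, and 381954 to 1413310 and 149641 to 379125 for those of SykY317F. The SykY317F LZ libraries also gave the fewest UMIs per 100 reads apart from SykY317F DZ replicate 4 (9.37 to 15.8 against 15.6 in that library and 33.5 to 53.2 in the other 10). B cell and GC B cell markers, all 12 detected in every group, summed to 8047 to 13114 CPM over the libraries (CPM: UMIs per 1000000, scaled between libraries). The 9 T cell markers with a row summed to 154 to 495 CPM and the 8 macrophage markers to 47.8 to 545 CPM. Cd83, a LZ surface marker, was higher in LZ over both genotypes (log2 fold change 1.0 ± 0.18 (SE), adjusted p = 0.00848), and Cxcr4, the chemokine receptor of DZ cells, was at -0.19 ± 0.23 and did not pass. Cxcr4 was at -0.62 ± 0.30 (SE) in the WT zones and 0.23 ± 0.35 in those of SykY317F, a difference of 0.85 ± 0.46 that did not pass (adjusted p = 0.999). SykY317F LZ held 325 ± 139 CPM of it (SD, n = 3) against 130 ± 40.6 in WT LZ (n = 4), at 1.31 ± 0.33 (adjusted p = 0.154 in edgeR), which DESeq2's Wald test called. Its mean in SykY317F DZ was 276 ± 53.7 CPM (n = 3), so in SykY317F the DZ mean was not above the LZ mean. Syk mRNA, which a point mutation need not alter, ran from 353 to 627 CPM over the 14 libraries and does not check the genotype labels.

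Pou2af1 and Bcl6 were the members that differed between the zones. Averaged over both genotypes, Pou2af1 mRNA was 2.03-fold lower in LZ than in DZ and Bcl6 mRNA 1.71-fold lower. Both lay below DZ in LZ in each genotype without overlap, and the other 7 measured factors did not pass the test. Neither genotype nor the difference of the zone effects between genotypes gave a call for any member.

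Pou2af1 (chromosome 9, 51213708 to 51240080, plus strand, GRCm38) was measured at 667, 961, 981 and 1016 CPM in WT DZ replicates 2, 3, 4 and 5 and at 371, 254, 576 and 548 CPM in WT LZ replicates 1, 2, 3 and 5. In SykY317F cells it was at 970, 574 and 639 CPM in DZ replicates 1, 2 and 4 and at 376, 271 and 452 CPM in the LZ replicates of the same numbers. Every LZ library was below every DZ library of its genotype, although the lowest SykY317F DZ library and the highest WT LZ library were nearly equal. The group means ± SD were 906 ± 161 CPM for DZ and 437 ± 152 for LZ in WT (n = 4 each), and 728 ± 212 and 366 ± 90.7 in SykY317F (n = 3 each). Both DZ means thus lay above both LZ means, and the DZ groups of the 2 genotypes overlapped, as did the LZ groups.

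Over both genotypes Pou2af1 fell by 1.02 ± 0.21 on the log2 scale (2 SE either side of the fold: 1.53 to 2.71; edgeR's quasi-likelihood test, adjusted p = 0.0162), and it ranked 36 by p among 7999 tested genes. Within WT the log2 fold change was -1.05 ± 0.27 (adjusted p = 0.103) and within SykY317F -0.99 ± 0.32 (adjusted p = 0.297), so neither genotype alone passed in edgeR. DESeq2's Wald test and limma voom with sample quality weights did call it in WT (adjusted p = 0.0152 and 0.0136), and the authors' deposited table gives a log2 fold change of -1.06 with an adjusted p of 0.0216 there. The zone effects of the genotypes differed by 0.06 ± 0.41 (adjusted p = 0.999), with 2 SE reaching from -0.76 to 0.88. That difference was called for 0 members and 0% of all genes, and had an unadjusted p under 0.05 for 0 members and 4.8% of all genes.

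Bcl6 (chromosome 16, 23965052 to 23988852, minus strand) was at 293, 401, 394 and 477 CPM in WT DZ replicates 2 to 5 and at 272, 203, 282 and 288 CPM in WT LZ replicates 1, 2, 3 and 5. It was at 311, 279 and 216 CPM in SykY317F DZ replicates 1, 2 and 4 and at 131, 96.0 and 194 CPM in the SykY317F LZ libraries. The WT zones were separated by a narrow gap, from 288 to 293 CPM, and the lowest LZ value of the 14 libraries was in SykY317F replicate 2. Group means ± SD were 391 ± 75.6 CPM for WT DZ (n = 4), 269 ± 48.8 for SykY317F DZ (n = 3), 261 ± 39.6 for WT LZ (n = 4) and 141 ± 49.9 for SykY317F LZ (n = 3). The middle pair, SykY317F DZ and WT LZ, overlapped, while SykY317F LZ lay below each of the other groups.

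In the mean of both genotypes Bcl6 fell by 0.77 ± 0.18 on the log2 scale (2 SE either side of the fold: 1.33 to 2.19; edgeR, adjusted p = 0.0359), rank 85 by p. The log2 fold change was -0.58 ± 0.22 within WT (adjusted p = 0.423) and -0.96 ± 0.29 within SykY317F (adjusted p = 0.265), and the difference of -0.37 ± 0.36 between them did not pass (adjusted p = 0.999). Bcl6 overlaps the predicted gene Gm37419 on the other strand, and whether the counting used strand is not given in the sources used here, so reads of such partners cannot be told apart. The same limit applies to Foxo1, Pax5, Ebf1 and Bach2, which have antisense or opposite-strand neighbours in the annotation, and to Foxp1, which overlaps Gm20696 on its own strand. It applies to Pou2af1 too, which overlaps the predicted gene Gm47828, annotated within an intron on the same strand.

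These 2 members were called among 9 tested, where 1.43% of all 7999 genes were called in either direction and 0.875% as lower. At an unadjusted p under 0.05 there were 14.3% of all genes and the same 2 members. Not overlapping, with LZ lower, were 2 of the 9 members in WT, where 2.88% of all genes had this order, and the same 2 in SykY317F, where 8.5% did. Both calls were sensitive to single libraries. Pou2af1 did not pass without SykY317F DZ replicate 1 (adjusted p = 0.0608), SykY317F LZ replicate 1 (0.0520) or SykY317F LZ replicate 2 (0.0582), with log2 fold changes of -0.89, -1.04 and -0.96. Bcl6 did not pass without any of those libraries (adjusted p = 0.121, 0.0945 and 0.117), nor without WT DZ replicate 3 (0.0702), WT DZ replicate 4 (0.0613), WT LZ replicate 1 (0.0522), WT LZ replicate 2 (0.0948) or SykY317F DZ replicate 2 (0.0540), with log2 fold changes from -0.78 to -0.69. Without the 2 libraries with the fewest UMIs, both had an adjusted p of 0.144. In each setting tried the fitted direction stayed lower in LZ, from -1.11 to -0.89 for Pou2af1 and from -0.91 to -0.69 for Bcl6.

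**Figure D1:**
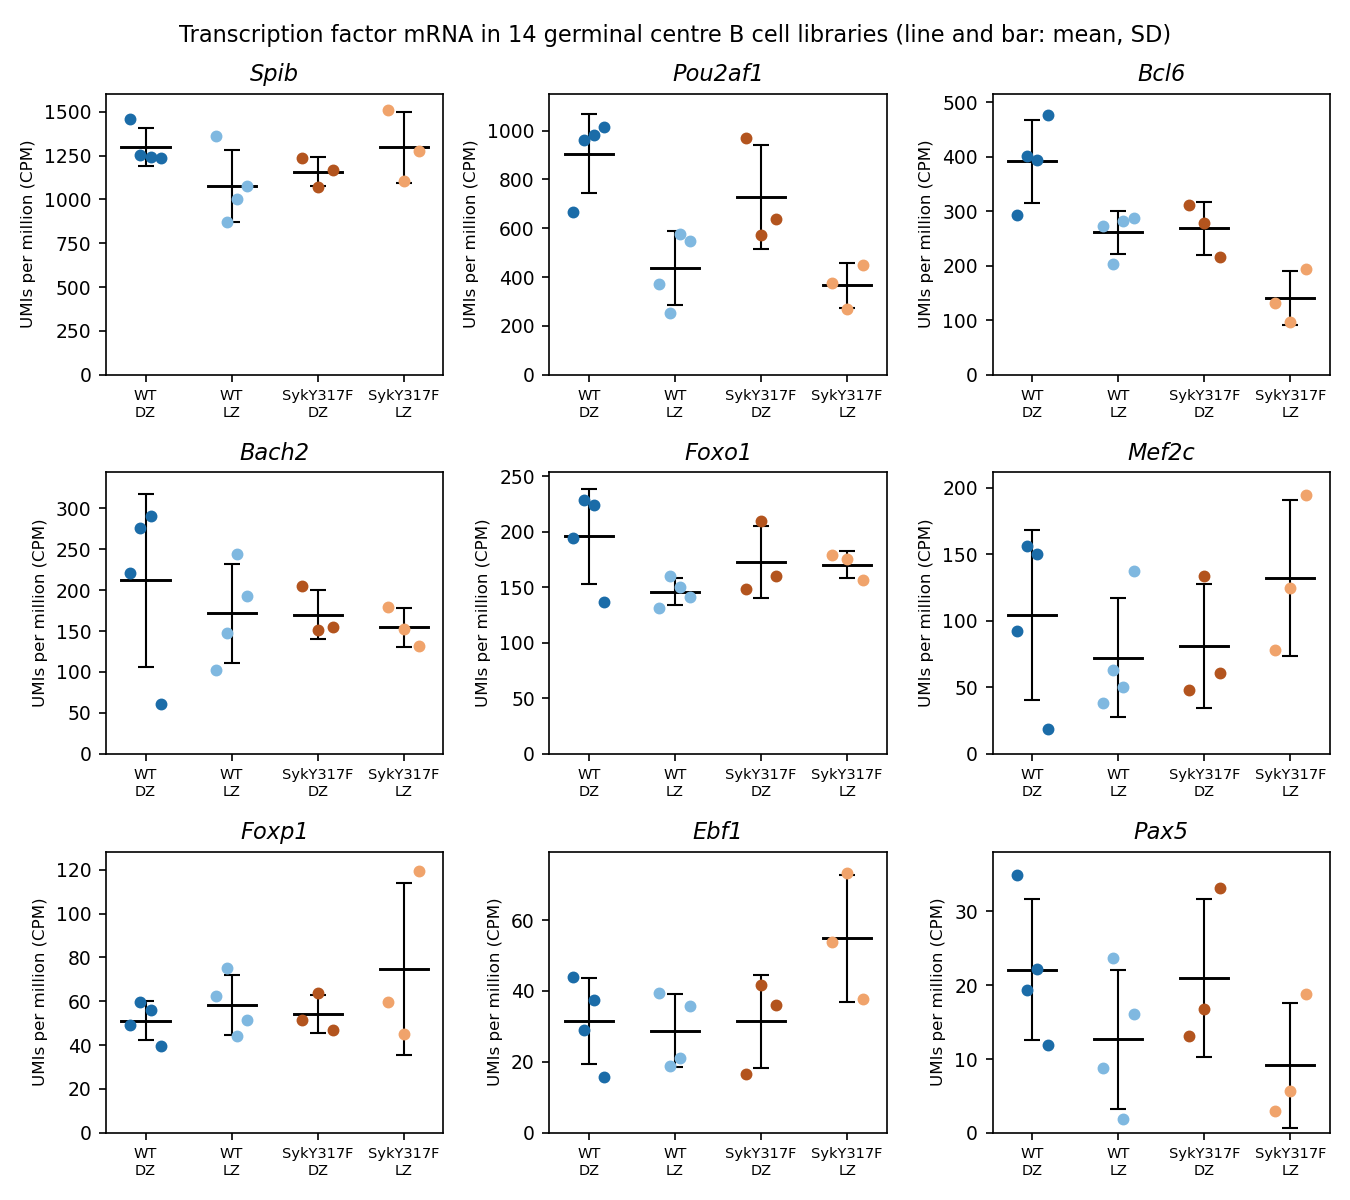
CPM (scaled UMI counts) of the 9 measured transcription factors on the y axis against the 4 groups on the x axis. Each point is 1 library, the horizontal line the group mean and the bar its SD. Pou2af1 and Bcl6 points in LZ lie below those of DZ within each genotype, and the zones overlap for the other 7 genes. Each y axis starts at 0 and has its own scale.

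**Figure D2:**
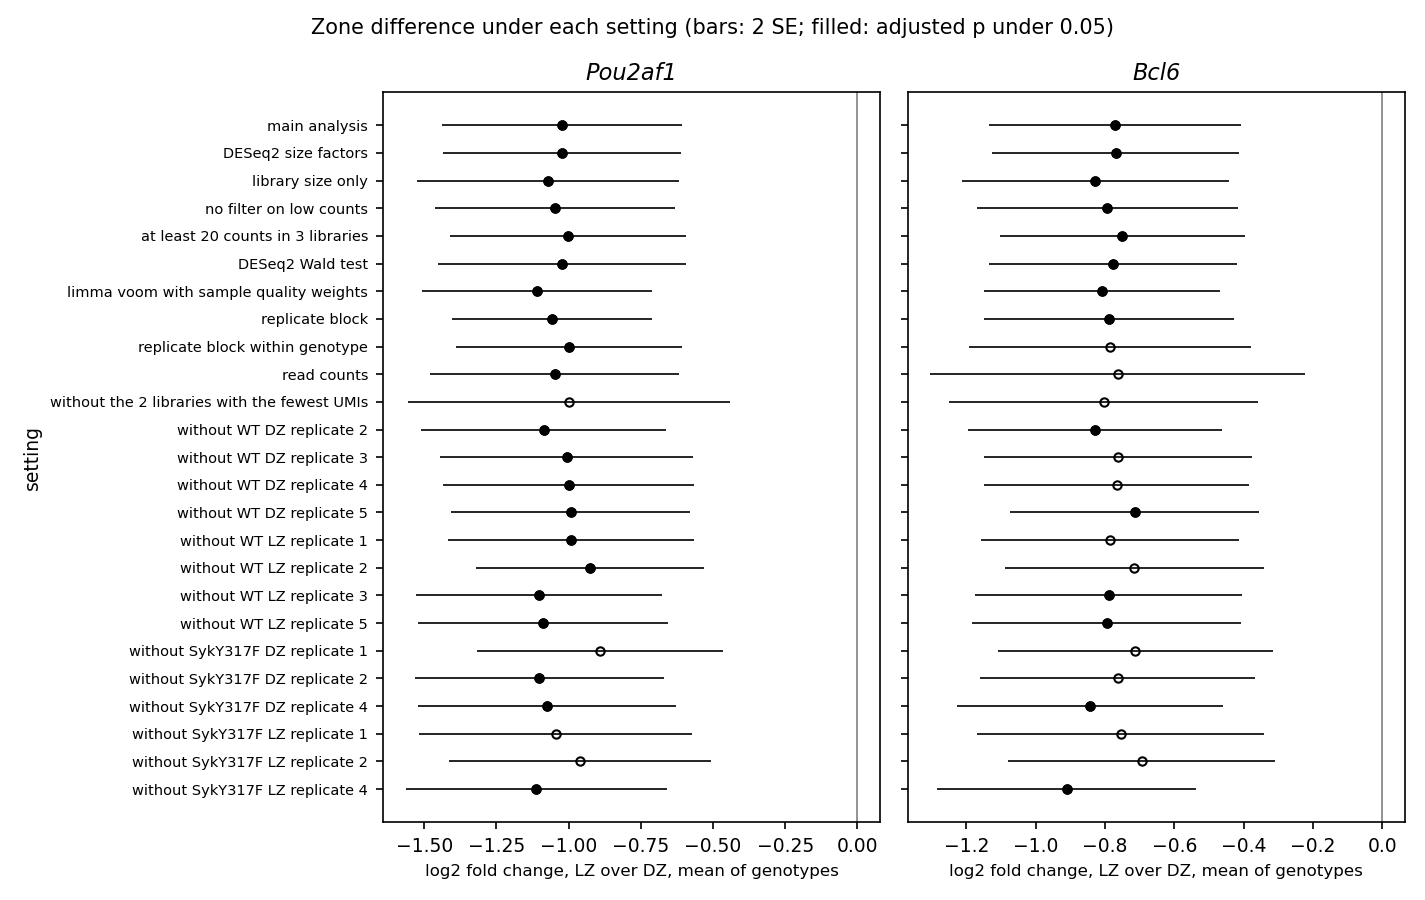
Log2 fold change of LZ over DZ, as the mean of both genotypes, for Pou2af1 (left) and Bcl6 (right) on the x axis under each setting on the y axis. Bars are 2 SE either side and filled points have an adjusted p under 0.05. All points lie below 0, and open points mark the settings named in the text in which a call was lost.

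Pou2af1 and Bcl6 also moved together between libraries. Over the 14 libraries the Pearson correlation of their log2 CPM was 0.82, the highest of the member pairs, and it was 0.79 after the group means were removed. Libraries share depth and composition, so this is a description with no p. The gene whose log2 CPM was most like that of Pou2af1 over the 14 libraries was Mbd2, a methyl-CpG binding protein (r = 0.969, and 0.925 with group means removed). For Bcl6 it was Blnk, the adaptor that Syk phosphorylates downstream of the antigen receptor (r = 0.947, and 0.913). Mean Blnk ± SD was 696 ± 119 CPM for DZ and 514 ± 78.5 for LZ of WT (n = 4 each), and 602 ± 65.1 and 368 ± 138 for those of SykY317F (n = 3 each), and its zone difference of -0.58 ± 0.18 did not pass in edgeR (adjusted p = 0.111) but was called by DESeq2's Wald test and limma voom.

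The bases just before the RefSeq start of both genes (GRCm38.p6) are shown because these were the members that passed. The 120 bases before the Pou2af1 start, chr9:51213570-51213689 on the plus strand, hold 52.5% G and C and 4 CpG dinucleotides, and those before the first Bcl6 start, chr16:23988853-23988972 read on the minus strand, hold 67.5% and 15. The median promoter of 32851 in the RefSeq table had 54.2% G and C, with quartiles at 45.8% and 65.0%, so this Bcl6 stretch lay above the upper quartile and the Pou2af1 stretch near the median. A second Bcl6 start in the table has 46.7% G and C and 4 CpG dinucleotides in the 120 bases before it (chr16:23981284-23981403), near the lower quartile, and which start these cells used was not measured.
Pou2af1: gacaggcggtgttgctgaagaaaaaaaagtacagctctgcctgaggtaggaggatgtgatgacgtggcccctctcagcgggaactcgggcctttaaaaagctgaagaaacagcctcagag
Bcl6: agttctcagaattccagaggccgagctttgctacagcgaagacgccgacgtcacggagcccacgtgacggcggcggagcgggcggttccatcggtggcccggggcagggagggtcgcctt

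Binding motifs of most of the factors were searched on both strands in the 250 bases before each RefSeq start of the 10 genes, 16 promoters in all. No separate motif for Pax5 or Foxp1 was searched. The octamer bound by Oct factors, ATGCAAAT, was in 1 of the 16, that of Mef2b, and in 1.60% of all promoters. The Ebf1 motif, TCCC and GGGA with any 2 bases between them, was in 1 of the 16, that of Foxo1, and in 0.779% of all. GAGGAAGT for Spib and PU.1, TGTTTAC for Foxo1, TTCCTAGAA for Bcl6, TGAGTCA for Bach2, and CTA and TAG with any 4 bases between them for Mef2 factors, were in 0 of the 16, against 2.44%, 3.17%, 0.347%, 4.46% and 3.20% of all promoters. A match here is a string of letters and not a shown binding site, and 0 matches say only that these letters are not in these windows. Both matches are shown with 30 bases either side and the motif in capitals. The Mef2b match begins 85 bases before the start within chr8:70152646-70152713, and the Foxo1 match 92 bases before within chr3:52268215-52268284, both on the plus strand.
Mef2b: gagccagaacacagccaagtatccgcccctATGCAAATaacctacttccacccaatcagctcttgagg
Foxo1: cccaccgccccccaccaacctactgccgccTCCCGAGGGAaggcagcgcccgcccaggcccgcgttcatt

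Spib (chromosome 7, 44525993 to 44532071, minus strand) had the most UMIs of the members in all 14 libraries and Pou2af1 the next most. These libraries count transcript ends, so UMIs do not scale with gene length, but how efficiently each end was captured is not known, and the order is one of counts. Spib was at 1460, 1256, 1242 and 1234 CPM in WT DZ replicates 2 to 5, at 1359, 869, 1000 and 1077 in the WT LZ libraries, at 1234, 1074 and 1169 in SykY317F DZ and at 1510, 1106 and 1273 in SykY317F LZ. The groups overlapped in each comparison. Its zone difference over both genotypes was -0.05 ± 0.15 on the log2 scale, with 2 SE reaching from -0.36 to 0.26, the narrowest interval of the 9 members. The 4 plasmacytoid dendritic cell markers with a row, a cell type that also uses Spib, summed to 113 to 221 CPM over the libraries, and their part in the Spib level was not tested.

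Foxo1 (chromosome 3, 52268336 to 52353221, plus strand), the DZ factor held out of the nucleus by PI3 kinase signalling, was at 194, 228, 224 and 136 CPM in WT DZ replicates 2 to 5 and at 132, 160, 150 and 141 in the WT LZ libraries. In SykY317F it was at 148, 210 and 160 CPM in DZ and at 179, 175 and 157 in LZ. WT DZ was higher than WT LZ in 3 of its 4 libraries, and replicate 5 lay inside the LZ range, while the SykY317F zones overlapped. The log2 zone difference was -0.42 ± 0.21 in WT (adjusted p = 0.589) and -0.02 ± 0.26 in SykY317F (adjusted p = 0.993), and the difference between these, 0.40 ± 0.33, did not pass (adjusted p = 0.999). The measurement is of mRNA, and the place of the protein in the cell was not measured.

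Bach2 (chromosome 4, 32238804 to 32586108, plus strand) was at 221, 276, 291 and 60.3 CPM in WT DZ replicates 2 to 5, at 102, 147, 244 and 193 in the WT LZ libraries, at 205, 151 and 155 in SykY317F DZ and at 179, 152 and 132 in SykY317F LZ. The SD within WT DZ was wider than the distance between the highest and lowest group means (212 ± 106 CPM, n = 4, and 154 ± 23.7 CPM in SykY317F LZ, n = 3). Its log2 zone difference over both genotypes was -0.22 ± 0.29 (adjusted p = 0.794). Mef2c (chromosome 13, 83504034 to 83667080, plus strand), which is needed for B cell proliferation after antigen receptor stimulation, spread even more, at 91.9, 156, 150 and 18.8 CPM in WT DZ, 38.4, 63.3, 49.9 and 137 in WT LZ, 47.9, 134 and 60.8 in SykY317F DZ and 77.6, 124 and 194 in SykY317F LZ. All 4 groups overlapped with one another, and the zone difference of 0.07 ± 0.47 had 2 SE from -0.87 to 1.01, the widest after Pax5.

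The low values in WT DZ came from replicate 5, which had the lowest Mef2c, Bach2, Ebf1 and Foxp1 of all 14 libraries and the lowest Foxo1, Pax5 and Spib of its group, but the highest Bcl6 and Pou2af1. Foxo1, Bach2 and Mef2c, all low in that library, were correlated. Their pairwise correlations over the 14 libraries were 0.65 for Foxo1 and Mef2c, 0.62 for Foxo1 and Bach2 and 0.58 for Bach2 and Mef2c. With group means removed they were 0.75, 0.71 and 0.67. These were not computed without WT DZ replicate 5, and the part of that library in them was not tested. In each SykY317F zone the library with the highest Bach2 had the lowest Mef2c, so Bach2 and Mef2c did not move together there. The gene most like Mef2c was Rasgrp3, a Ras activator of the antigen receptor pathway (r = 0.966, and 0.981 with group means removed), and the one most like Bach2 was Fut8, a fucosyltransferase (r = 0.911, and 0.952). For these the likeness was at least as high with group means removed, so it was present between libraries of the same group. Whether the group means also went together was not computed. Each partner was picked as the highest correlation among the tested genes, and Mef2c and Bach2 were both lowest in WT DZ replicate 5.

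**Figure D3:**
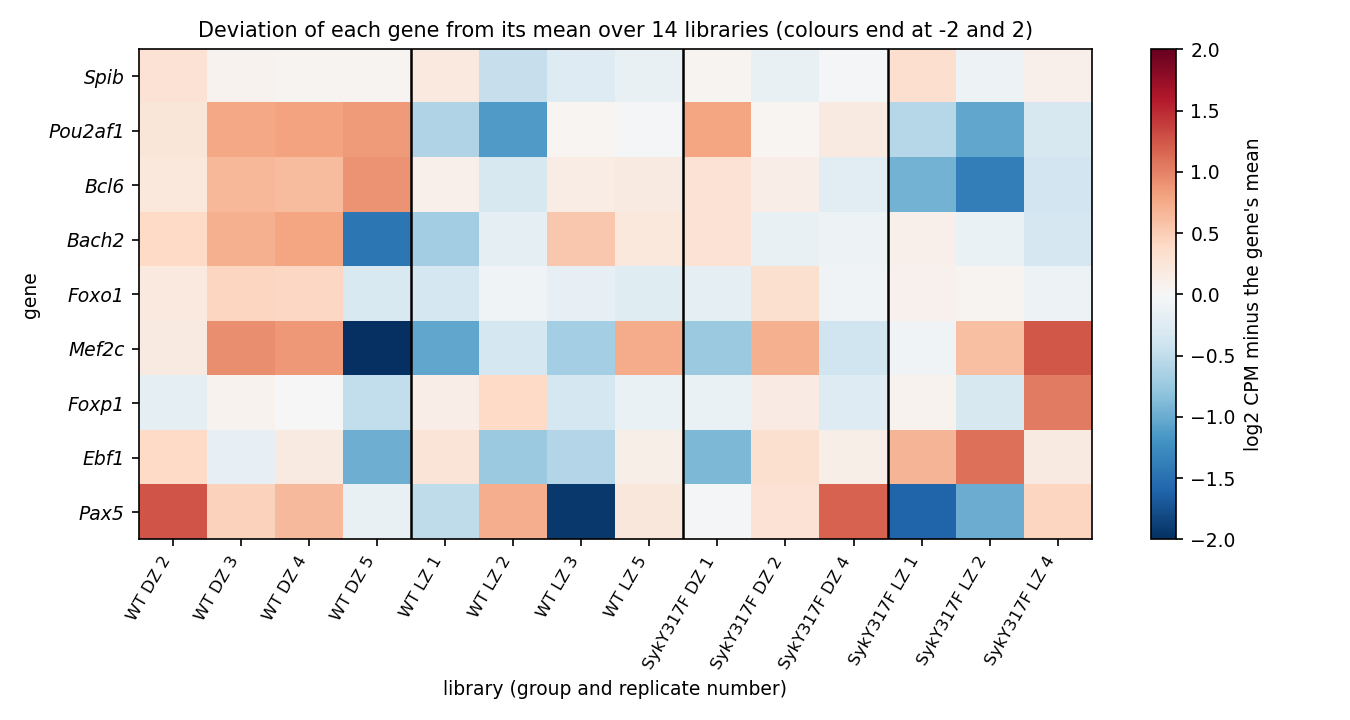
Log2 CPM of each gene (y axis) in each library (x axis, by group and replicate number) minus the gene's mean over the 14 libraries, in colour from -2 (blue) to 2 (red). WT DZ replicate 5 is blue for Bach2, Mef2c and Ebf1 and red for Pou2af1 and Bcl6, and both of the latter are blue in SykY317F LZ.

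The factors of B cell identity were measured at low counts. Ebf1 (chromosome 11, 44617317 to 45008091, plus strand) was at 44.0, 29.1, 37.4 and 15.7 CPM in WT DZ, 39.5, 18.8, 21.1 and 35.8 in WT LZ, 16.7, 41.7 and 35.9 in SykY317F DZ and 53.7, 73.4 and 37.6 in SykY317F LZ. The SykY317F LZ libraries held the 2 highest of all values, from 18 and 13 UMIs, and the third overlapped the other groups. Against WT LZ the log2 fold change in SykY317F LZ was 0.91 ± 0.45 (adjusted p = 0.519), and against SykY317F DZ 0.83 ± 0.48 (adjusted p = 0.593), and neither passed. Over the 14 libraries Ebf1 and Bcl6 had the most negative correlation of the member pairs, -0.63, and -0.50 with group means removed.

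Pax5 (chromosome 4, 44524757 to 44710487, minus strand) had the fewest UMIs of the members in 13 of the 14 libraries. It was at 34.9, 19.4, 22.2 and 11.9 CPM in WT DZ, 8.8, 23.7, 1.9 and 16.2 in WT LZ, 13.1, 16.8 and 33.2 in SykY317F DZ and 3.0, 5.6 and 18.8 in SykY317F LZ. The SykY317F LZ values rest on 1, 1 and 3 UMIs and the lowest WT LZ value on 1. Its log2 zone difference of -0.99 ± 0.50 over both genotypes was as large as that of Pou2af1 but did not pass (adjusted p = 0.370), with 2 SE from -1.98 to 0.00, so a zone difference in Pax5 was not resolved at this depth. Foxp1 (chromosome 6, 98925338 to 99522721, minus strand) was at 49.2, 59.7, 56.1 and 39.6 CPM in WT DZ, 62.5, 75.1, 44.1 and 51.4 in WT LZ, 51.5, 63.9 and 47.0 in SykY317F DZ and 59.7, 45.2 and 119 in SykY317F LZ. The high value in SykY317F LZ replicate 4 came from 19 UMIs. All Foxp1 groups overlapped, and its zone difference was 0.30 ± 0.23 (adjusted p = 0.575).

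Of the remaining likenesses over the 14 libraries, Foxp1 was closest to Mccc1 (r = 0.900), Ebf1 to Tmsb4x (0.859) and Spib to Arhgap1 (0.843). Pax5 was closest to a predicted gene, Gm12669 (0.874). The median log2 zone difference of the 9 members was -0.42 in WT and -0.02 in SykY317F, against -0.02 and -0.04 over all tested genes. In WT 8 of the 9 had a negative estimate, where 51.7% of all genes did, and in SykY317F 5 of the 9, where 53.3% did. In WT alone 0 members were called (0.188% of all genes were) and in SykY317F alone 0 (0.0375%), while 2 members, Pou2af1 and Bcl6, had an unadjusted p under 0.05 in each, where 8.48% and 10.3% of all genes did.

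**Figure D4:**
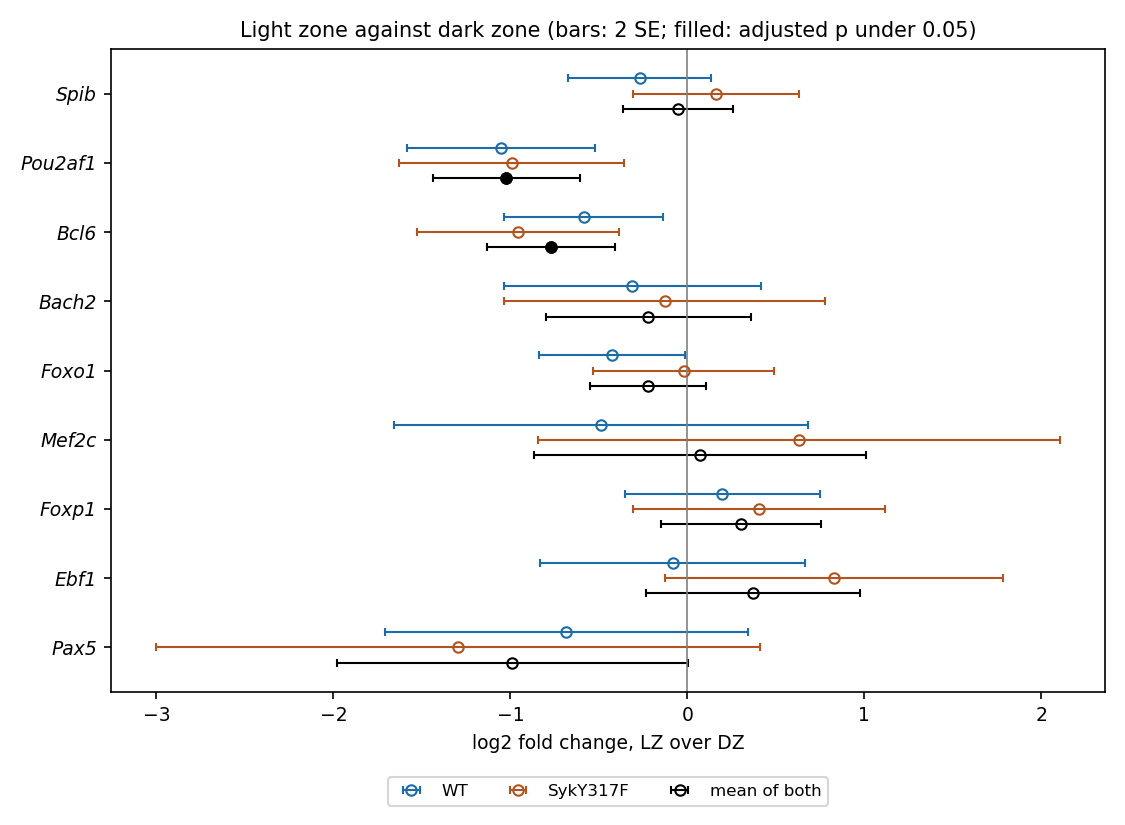
Log2 fold change of LZ over DZ on the x axis for the 9 factors on the y axis, in WT, in SykY317F and as the mean of both. Bars are 2 SE either side and filled points have an adjusted p under 0.05. The filled points are the means of Pou2af1 (-1.02) and Bcl6 (-0.77), and the Pax5 bar in SykY317F is the widest.

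Summed over the 9 members, WT DZ libraries held 3009 to 3399 CPM and WT LZ libraries 1814 to 2488 CPM, without overlap. SykY317F DZ libraries held 2516 to 2998 CPM and SykY317F LZ libraries 2049 to 2578 CPM, with overlap. Spib and Pou2af1 supply most of these sums. Among libraries that share a replicate number, the LZ to DZ ratio of Pou2af1 was 0.381, 0.600 and 0.539 in WT and 0.388, 0.472 and 0.707 in SykY317F, and that of Bcl6 was 0.693, 0.703 and 0.604 in WT and 0.422, 0.344 and 0.902 in SykY317F. All 12 ratios were under 1, as any pairing within a genotype must give where the zones do not overlap, so they add no separate result. The numbers were also not shown to pair the libraries.

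The genotypes were compared within each zone to ask whether the Syk mutation went with a different level of these factors. No member passed in DZ or in LZ, where edgeR called 0% of all genes in each. DESeq2's Wald test called 2 genes in DZ and 43 in LZ, of which 0 were members. In DZ the unadjusted p was under 0.05 for 1 member, Bcl6, and for 3.81% of all genes. Bcl6 had a log2 fold change of -0.53 ± 0.24 in SykY317F DZ against WT DZ (adjusted p = 0.9999), and its groups overlapped through WT DZ replicate 2. Estimates of 8 of the 9 members were below 0 in DZ, as were 55% of all genes. The member median was -0.17, against -0.04 for all genes.

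In LZ, Bcl6 was at 96.0 to 194 CPM in SykY317F and at 203 to 288 CPM in WT, without overlap, an order that 6.66% of all genes had. The log2 fold change was -0.91 ± 0.27, or 1.87-fold lower with 2 SE from 1.28 to 2.73, and it did not pass (adjusted p = 0.269 in edgeR and 0.151 in the authors' deposited table). Its estimate was negative in every setting tried, from -1.19 to -0.74. Depth moved with this comparison, since SykY317F LZ libraries had the fewest UMIs (92 of Bcl6 in all, against 1099 in WT LZ). Over the 14 libraries Bcl6 log2 CPM correlated with log2 UMI total at 0.76, and at 0.27 with group means removed, and the part of depth in the Bcl6 difference was not tested. In LZ the unadjusted p was under 0.05 for Bcl6 alone of the members and for 9.81% of all genes. The other members had LZ genotype differences of -0.77 to 0.91 with adjusted p from 0.519 to 0.950.

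**Figure D5:**
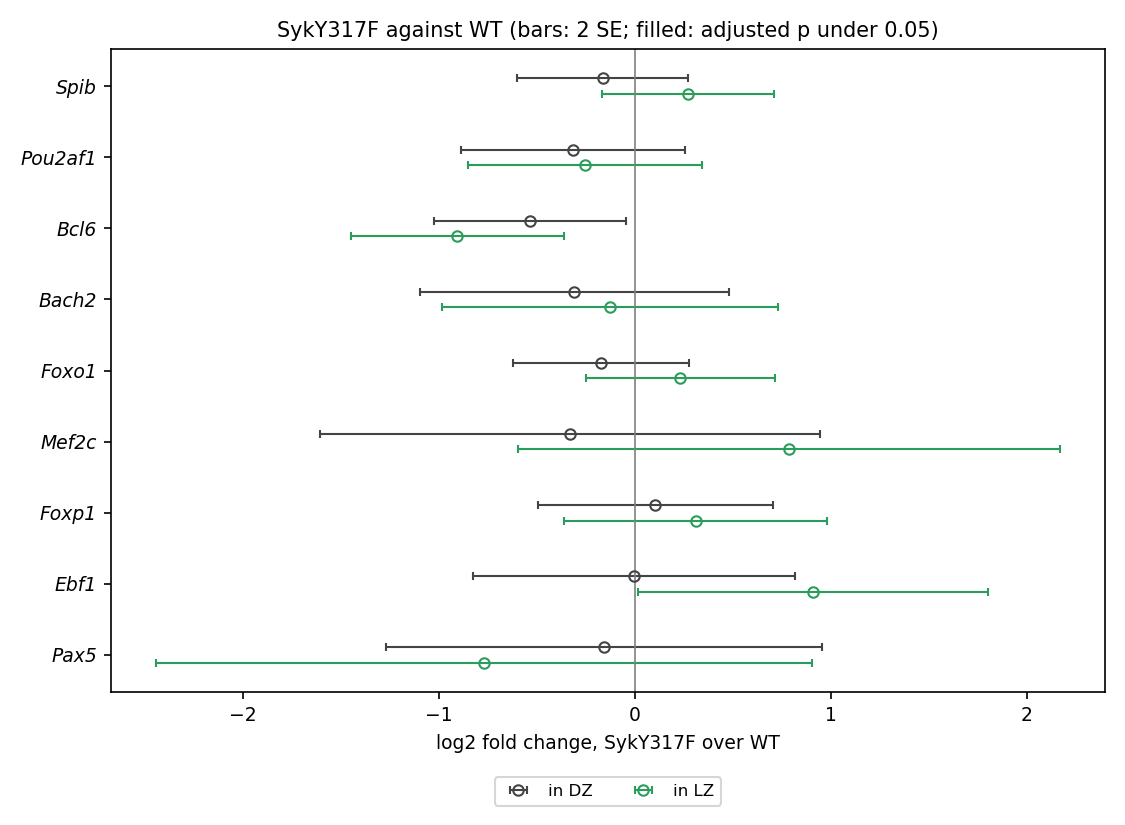
Log2 fold change of SykY317F over WT on the x axis for the 9 factors on the y axis, in DZ and in LZ. Bars are 2 SE either side, and an adjusted p under 0.05 would be a filled point, of which there are 0. Bcl6 is below 0 in both zones and Ebf1 is above 0 in LZ.

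Partners and targets of the factors were read from lists. Of relatives of the members, 7 were tested and 0 passed in any contrast by edgeR, DESeq2 or limma voom, with 0 at an unadjusted p under 0.05 over both genotypes. Pou2f2, an Oct factor that Pou2af1 joins, was at 500 ± 42.5 CPM (SD, n = 4) in WT DZ against 538 ± 29.6 (n = 4) in LZ, with a zone difference of 0.23 ± 0.14 over both genotypes. Spi1, which encodes PU.1, was at 0.26 ± 0.18 and Mef2d at -0.58 ± 0.41. Of 14 corepressors used by Bcl6 and Bach2, 0 passed by those tools. At an unadjusted p under 0.05, 2 of the 14 had higher estimates in LZ over both genotypes, a share near the 14.3% of all genes in either direction. The corepressor of Bcl6 named Bcor was at 0.63 ± 0.20 (adjusted p = 0.132) and Mta3 at 0.31 ± 0.18.

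Of 25 other transcription factors of B cells, edgeR called 1 as higher in LZ over both genotypes and 0 as lower. Of all genes it called 1.43% in either direction. Runx3, a Runt factor, averaged 31.4 ± 11.9 CPM (SD) in the DZ and 64.7 ± 7.9 in the LZ of WT (n = 4 each), with 52.9 ± 9.8 and 98.8 ± 22.6 in those of SykY317F (n = 3 each), and rose by 0.99 ± 0.21 on the log2 scale (adjusted p = 0.0215). The call was lost when WT DZ replicate 3, WT LZ replicate 2, SykY317F DZ replicate 1 or 4, or SykY317F LZ replicate 1 was left out (adjusted p up to 0.0918). Stat3 at 0.62 ± 0.17 (adjusted p = 0.0712) and Bcl11a at 0.64 ± 0.21 (adjusted p = 0.143) did not pass in edgeR. DESeq2's Wald test and limma voom each called 2 of the list as higher, Runx3 and Stat3, and called more of all genes than edgeR did. The list's median zone difference was 0.23, against -0.03 for all genes.

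Genes that Bcl6 is known to repress had 14 tested members, of which 0 passed in any contrast. In WT, 13 of the 14 had a positive zone estimate, where 51.7% of all genes had a negative one, and the median was 0.80. Bcl2, the survival gene, averaged 8.6 ± 4.7 CPM (SD, n = 4) in WT DZ against 28.9 ± 15.2 (n = 4) in LZ (log2 fold change 1.79 ± 0.58, adjusted p = 0.295). In SykY317F 6 of the 14 were positive, with a median of -0.03. Between genotypes in DZ, 12 of the 14 were positive with a median of 1.09, where 55% of all genes were negative, and Bcl2 was at 33.8 ± 22.7 CPM in SykY317F DZ (SD, n = 3). Markers of other cells moved with this list. In DZ between genotypes, all 8 naive and memory B cell markers tested had positive estimates (median 1.63), as did all 6 T cell markers (median 2.09) and all 7 macrophage markers (median 0.72), while 9 of 12 B cell and GC markers had negative ones (median -0.37). The 9 T cell markers with a row, all detected in every group, summed to 166 to 262 CPM in WT DZ and 393 to 495 in SykY317F DZ, and the 9 naive and memory markers to 564 to 1042 and 1183 to 2126. The 8 macrophage markers summed to 91.9 to 389 and 262 to 545 CPM. The part of these cells in the result was not tested. At an unadjusted p under 0.05, 7 of the 14 Bcl6-repressed genes had higher estimates in DZ between genotypes, where 3.81% of all genes passed that p in either direction, and 4 between the WT zones, where 8.48% did. DESeq2's Wald test also called 0 of them in any contrast. Between the WT zones limma voom called 2 as higher, Ccnd2 and Myc, which are named here because of that call, and 295 of all genes.

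Those markers also moved between the zones, beside the calls of Pou2af1 and Bcl6. In WT 7 of 8 naive and memory markers had positive zone estimates (median 1.02), and in SykY317F 4 of the 8 did (median -0.11). Of all genes, 51.7% had negative zone estimates in WT (median -0.02) and 53.3% in SykY317F (median -0.04). Over both genotypes 5 of the 8 naive and memory markers had positive estimates, where 53.7% of all genes had negative ones. By edgeR 2 of the 8 passed as higher over both, Ccr6 at 1.37 ± 0.29 (adjusted p = 0.0250) and Fcer2a, which encodes CD23, at 0.74 ± 0.18 (adjusted p = 0.0434). Of all genes edgeR called 1.43% over both genotypes in either direction, and 0.875% as lower. Leaving out any of 8 libraries ended the Ccr6 call (adjusted p up to 0.0861) and any of 11 the Fcer2a call (up to 0.131), with log2 fold changes that stayed at 1.26 or more and 0.66 or more. The Ccr6 call remained without WT DZ replicate 2 or 5, WT LZ replicate 3 or 5, SykY317F DZ replicate 2 or SykY317F LZ replicate 4, and the Fcer2a call without WT DZ replicate 2 or 5 or WT LZ replicate 3. Summed, the list gave 904 to 1971 CPM in WT LZ and 1889 to 2309 in SykY317F LZ. T cell markers had positive zone estimates for 5 of 6 in WT (median 1.31) and for 0 of 6 in SykY317F (median -0.96). Of the 12 B cell and GC markers 10 had negative zone estimates in WT (median -0.51) and 6 in SykY317F (median -0.20). EdgeR called 1 of them as lower over both genotypes, Gcsam, an adaptor of GC B cells, which fell by 1.68 ± 0.30 on the log2 scale (adjusted p = 0.00831). Plasma cell markers summed to 2145 to 2800 CPM in WT DZ and 1290 to 1613 in WT LZ, and of the 5 tested 1 passed as lower, Mzb1, a chaperone of antibody secretion, at -0.77 ± 0.19 (adjusted p = 0.0414). The Mzb1 call remained only when the library left out was WT DZ replicate 2, WT LZ replicate 1 or SykY317F DZ replicate 2 (adjusted p up to 0.129 without another), and the Gcsam call remained without any 1 library (up to 0.0369). Macrophage markers were lower in LZ by estimate over both genotypes, as Pou2af1 and Bcl6 were, but were divided in direction in WT. All 7 tested had negative estimates over both genotypes (median -0.83). In WT 3 of the 7 had positive estimates (median -0.27), and in SykY317F 0 of the 7 did (median -2.49). Their sum was 262 to 545 CPM in SykY317F DZ and 47.8 to 113 in SykY317F LZ, without overlap, and 91.9 to 389 and 57.6 to 161 in the WT zones. Tyrobp, a signalling adaptor of myeloid cells, was at -1.83 ± 0.49 (adjusted p = 0.0712) and the lysozyme gene Lyz2 at -1.74 ± 0.50 (adjusted p = 0.119) over both genotypes. Neither passed in edgeR or limma voom, and DESeq2's Wald test called both as lower. What part differing mixtures of cells had in the Pou2af1 and Bcl6 differences was not tested.

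Genes that Pax5 or Ebf1 are known to activate had 16 tested members, which divided in direction. Over both genotypes edgeR called 2 as higher in LZ and 2 as lower, where it called 1.43% of all genes in either direction. DESeq2's Wald test and limma voom each called 3 as higher and 3 as lower, adding Cd22 and Blnk, which are named here because of that call. Those 2 tools also called more of all genes than edgeR did. Cd72, an inhibitory receptor, was higher at 1.03 ± 0.18 (adjusted p = 0.00614) and Fcer2a, already counted among the naive and memory markers, was the other. The lower ones were Cd24a, a surface sialoglycoprotein, at -1.29 ± 0.27 (adjusted p = 0.0190) and Pou2af1 itself, which is also on this list. The Cd72 call remained without any 1 library (adjusted p up to 0.0268), and the Cd24a call ended without SykY317F DZ replicate 1 or SykY317F LZ replicate 1 (up to 0.0734). The list's median was -0.03, the same as that of all genes to this precision.

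Genes that Foxo1 is known to activate in lymphocytes had 12 tested members, of which 0 passed in any contrast by edgeR. At an unadjusted p under 0.05 over both genotypes, 2 were higher and 1 lower in LZ. Of all genes, 14.3% passed that p in either direction. DESeq2's Wald test and limma voom each called 1 as lower over both genotypes, and called more of all genes than edgeR did. Klf2, a quiescence factor shared with the naive and memory list, was at 0.79 ± 0.28 (adjusted p = 0.179) and Sesn1 at 0.59 ± 0.28 (adjusted p = 0.343). The list's median was 0.02 over both genotypes, 0.49 in the WT zones and -0.37 in those of SykY317F. Between genotypes in DZ, 10 of the 12 had positive estimates (median 1.32), where 55% of all genes were negative. At an unadjusted p under 0.05, 6 of the 12 were higher there and 1 lower, where 3.81% of all genes passed in either direction. The list shares 4 genes with the naive and memory list, Klf2, Ccr7 and S1pr1 among them, so the lists are not separate measurements.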

How the data were processed

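mRNA of sorted cells was captured on oligo(dT) beads and sequenced after a variation of MARS-seq, a method that tags transcript ends with UMIs, per the labels' protocols. STAR 2.4.2a, cutadapt, HTSeq, DESeq, DESeq2 and build mm10 are listed in the submitters' processing notes. How reads were counted, strand included, is not given in the sources used here. Both deposited count tables, of UMIs and of reads, hold unnormalized whole numbers by gene symbol, and read counts keep PCR copies. The authors' normalized values are a signal per library, and their regularised log2 values and this signal were not used. Numbers from the authors' own test, log2 differences and adjusted p-values, are printed only where their deposited table is named.

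The members and gene lists were chosen with earlier results of these data known. UMI counts of all genes were filtered with filterByExpr (7999 of 9969 genes, 99.3% of UMIs), TMM-scaled and fitted with edgeR 4.0.16 (R 4.3.3; quasi-likelihood, robust, 4 groups, common biological coefficient of variation 32.3%). Benjamini-Hochberg adjustment ran over the 7999 genes of each of 6 contrasts, with a threshold of 0.05. CPM are UMIs per 1000000 on the TMM scale, and log2 CPM used a prior count of 2. Named genes are the 10 members, the 3 genes with the smallest p of each other list in the mean zone contrast, genes of a list past the threshold, the most correlated gene of each member, and Cxcr4, Cd83 and Syk; some genes that this rule names are not reported here. Of 100 genes simulated with a 2-fold change, 56 were recovered in the mean zone contrast, 32 in WT, 8 in SykY317F, 17 between genotypes in each zone and 3 for the interaction. Of 100 simulated with a 4-fold change, 93, 92, 68, 86 in DZ, 73 in LZ and 30 were recovered. The changed genes were drawn from those with a mean of at least 20 CPM, so recovery at lower levels was not simulated. Pax5 group means were 9.1 to 22.1 CPM. Alternatives were DESeq2 1.42.0 (size factors and Wald test), library size only, no filter or at least 20 counts in 3 libraries, sample quality weights in limma 3.58.1 voom, a replicate block over all groups or within genotype, read counts, both groups alone, and leaving out libraries. Promoters are from RefSeq (GRCm38.p6), where all 10 members matched, and gene positions from GENCODE M21 on GRCm38, the assembly of mm10. Counts of few UMIs are given as they are, without intervals, and cover counting error only.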

Additional observations from a re-analysis of the deposited data

Results flagged for a closer look

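In WT DZ replicate 2, Pou2af1 was at 666.6 CPM, while the other 3 WT DZ libraries were at 961 to 1016 CPM, a gap of 0.841 of the group's range. In the same library Spib was at 1460 CPM against 1234 to 1256 in the others, a gap of 0.903 of the range. Dixon's critical value for 4 libraries is 0.829, 18 groups of 4 were checked, and chance passes about 1 in 20. Without this library the zone difference of Pou2af1 over both genotypes was -1.09, against -1.02 with it.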

How the results depend on the processing

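The lower LZ level of Pou2af1 and Bcl6 over both genotypes kept its direction in all 24 alternatives, and 20 and 13 of them kept the call. The count of members called was 1 under a replicate block within genotype (Bcl6 -0.79, adjusted p = 0.111), 1 under read counts (Bcl6 -0.76, adjusted p = 0.193) and 0 without the 2 libraries with the fewest UMIs, which leaves SykY317F LZ with 1 library assumed to vary like the other groups (Pou2af1 -0.998, Bcl6 -0.80). Leaving out 1 library gave 0 to 2 members, with Pou2af1 at -1.11 to -0.89 and Bcl6 at -0.91 to -0.69. In WT alone 1 member was called by DESeq2's Wald test (Pou2af1 -1.06) and 1 by limma voom (-1.16).

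Counts of all genes called over both genotypes (114 in the main analysis) were 235 by the Wald test, 227 by voom, 28 with a replicate block within genotype, 49 with read counts, 17 without the 2 libraries and 42 to 152 without 1 library. In WT (15) they were 97, 295, 1, 0, 9 and 1 to 26, and 6 with both groups alone. In SykY317F (3) they were 42 by the Wald test, 9 by library size only, 1 with a replicate block, 0 with the block within genotype, 20 with read counts, 0 without the 2 libraries, 1 with both groups alone and 0 to 10 without 1 library. Between genotypes in DZ (0) they were 2 by the Wald test and 4 by voom, and in LZ (0) 43 by the Wald test, 1 by library size only, 54 with read counts and 0 to 5 without 1 library. With library size as the only scaling, the all-gene median was -0.19 in the SykY317F zones, -0.19 for the interaction and -0.16 between genotypes in LZ. The cause of these changes was not tested.

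The estimates that changed sign were of members that were called in neither setting. In the WT zones these were Ebf1 (0.038 with a replicate block, -0.30 to 0.10 without 1 library) and, with the block within genotype, Bach2 (0.28) and Mef2c (0.15). In the SykY317F zones they were Foxo1 (0.0079 with the stricter filter, 0.076 by voom, 0.0020 with the block within genotype, 0.045 without the 2 libraries, -0.13 to 0.15 without 1), Bach2 (0.27 with reads, 0.061 without the 2, -0.28 to 0.032 without 1), Mef2c (-0.084 without the 2) and Foxp1 (-0.045 to 0.60 without 1). Over both genotypes they were Mef2c (-0.095 by voom, -0.28 without the 2, -0.20 to 0.38 without 1), Bach2 (0.073 with the block within genotype, 0.066 with reads) and Spib (0.064 without the 2). Between genotypes in DZ they were Ebf1 (0.0064 with DESeq2 size factors, 0.011 with the stricter filter, 0.0059 by the Wald test, 0.016 without the 2, 0.026 with both groups alone, -0.36 to 0.33 without 1), Foxp1 (-0.052 by voom, -0.042 to 0.19 without 1), Mef2c (0.060 with a replicate block) and Pax5 (-0.53 to 0.14 without 1). Between genotypes in LZ they were Bach2 (0.14 with reads, 0.070 without the 2, -0.32 to 0.074 without 1) and Foxp1 (-0.14 to 0.51 without 1). For the difference of zone effects they were Pou2af1 (-0.075 by library size only, -0.13 to 0.33 without 1), Bach2 (-0.011 with a replicate block, -0.42 within genotype, -0.033 to 0.46 without 1) and Foxp1 (-0.11 without the 2, -0.24 to 0.40 without 1).

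Replicate numbers were not shown to pair the libraries. Deviations of same-numbered zones correlated at 0.15, 0.08 and -0.56 in WT and 0.13, 0.21 and -0.07 in SykY317F. Those of same-numbered libraries of different genotypes correlated at -0.17 to 0.31. So few pairs cannot settle whether the numbers pair libraries, and why a call was lost under the block was not tested. Pax5 at 1 to 3 UMIs in each SykY317F LZ library marks what this depth can resolve.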
